A study of Homo sapiens with 5 samples.

Results

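The genes that encode the proteins of the cytosolic ribosome were read in 5 microarray samples of MonoMac6, a human monocytic leukaemia cell line. Members were the probe sets whose single gene symbol is RPL or RPS followed by digits, with at most a closing A, L or X or a paralogue suffix, together with the stalk proteins and RPSA, and without pseudogenes, S6 kinase genes and the Y-linked RPS4Y genes. This rule found 121 of 54675 probe sets, which stand for 60 genes. Of these genes 20 encode small subunit proteins, 30 large subunit proteins, 2 stalk proteins and 8 are second-copy paralogues. A probe set counted as measured when its signal passed 48.7 on at least 1 array, and by that threshold 114 of the 121 probe sets and 59 of the 60 genes were measured. Where a gene had several probe sets, the one with the highest mean signal stood for it.

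One sample was unstimulated, and the others were cultured for 12 h with 100 nM of a lipid mediator from a DMSO stock. These were the leukotrienes B4 and C4 and the lipoxins A4 and B4. The labels leave unsaid if DMSO alone went to the unstimulated culture, and no culture time is given for it. Every condition has 1 array from 1 cell line, so no difference between arrays has an error or a test, and all values describe these arrays. All 4 comparisons with the unstimulated sample share that 1 array, so a deviation of it enters each of them.

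A cytosolic ribosome is built from ribosomal RNA and one copy of nearly every ribosomal protein, so the protein genes are expressed together and at high levels in growing cells. Most of their mRNAs begin with a C and an unbroken run of pyrimidines, the 5′ terminal oligopyrimidine tract, through which LARP1 and the mTOR pathway control their translation. Leukotriene B4 is a dihydroxy acid that attracts leukocytes, leukotriene C4 carries a glutathione group and contracts smooth muscle, and the lipoxins are trihydroxy acids that dampen inflammation.

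The start of a transcript is where these genes resemble each other in sequence, so the 10 bases before and 20 bases from the RefSeq start (GRCh38.p14) are shown for members that return in the results, with the pyrimidine run that begins at the start in capitals. Where a gene had several starts, one with a tract was taken before others, and then the longest run. The first 4 come from members whose signals lay among the highest or whose differences were widest: RPS23 (chr5:82278335-82278364, minus strand), RPL39 (chrX:119791611-119791640, minus strand), RPS18 (chr6:33272065-33272094, plus strand) and RPL31 (chr2:101002279-101002308, plus strand). The next 2 are RPL24 (chr3:101686699-101686728, minus strand), with the highest values on several arrays, and RPL6 (chr12:112411423-112411452, minus strand), with low ones. Then follow 3 pairs of a gene and its paralogue: RPS27 (chr1:153990752-153990781, plus strand) with RPS27L (chr15:63157458-63157487, minus strand), RPL22 (chr1:6199576-6199605, minus strand) with RPL22L1 (chr3:170870176-170870205, minus strand), and RPL36A (chrX:101391001-101391030, plus strand) with RPL36AL (chr14:49620607-49620636, minus strand).
RPS23: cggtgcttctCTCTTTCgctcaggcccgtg
RPL39: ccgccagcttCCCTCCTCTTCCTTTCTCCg
RPS18: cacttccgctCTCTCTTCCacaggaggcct
RPL31: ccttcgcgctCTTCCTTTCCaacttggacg
RPL24: atgattctctCTTTCTTTTCgccatctttt
RPL6: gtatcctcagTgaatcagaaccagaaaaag
RPS27: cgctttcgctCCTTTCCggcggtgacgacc
RPS27L: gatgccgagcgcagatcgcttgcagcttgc
RPL22: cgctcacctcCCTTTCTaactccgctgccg
RPL22L1: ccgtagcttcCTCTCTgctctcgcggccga
RPL36A: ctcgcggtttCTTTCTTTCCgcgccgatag
RPL36AL: tcttccctttCCTgttaggcgagagctgcg

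A tract, taken as a C at the start followed by pyrimidines to a run of at least 5 bases, was present in 35 of the 52 members with an entry in the promoter table (67.3%). In every gene group a gene with several starts, as 7 members have, counted if any start had a tract, which can only raise the shares. Among 15791 other protein-coding genes 953 had one (6.04%). The tract stood in 14 of 19 small subunit genes and 18 of 25 large subunit genes, but in 1 of 6 paralogues, RPL22L1. RPS27L and RPL36AL lack it where their partners RPS27 and RPL36A carry it. The longest run, 19 bases, belongs to RPL39. RPL6 has no tract at the annotated start, which says only that this start is followed by other letters. Of 7 transcription factor motifs searched on both strands over 250 bases before and 50 after the start, the ETS motif CCGGAAG was in 19 of 52 members (36.5%) against 16.5% of other coding genes, and the YY1 motif AAGATGGC in 9.62% against 4.65%. The SP1 motif GGGCGG was in 57.7% of members and 64.3% of other coding genes, and the TATA motif TATAAA in 9.62% and 12.4%. A motif near any listed start of a gene counted.

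**Figure D1:**
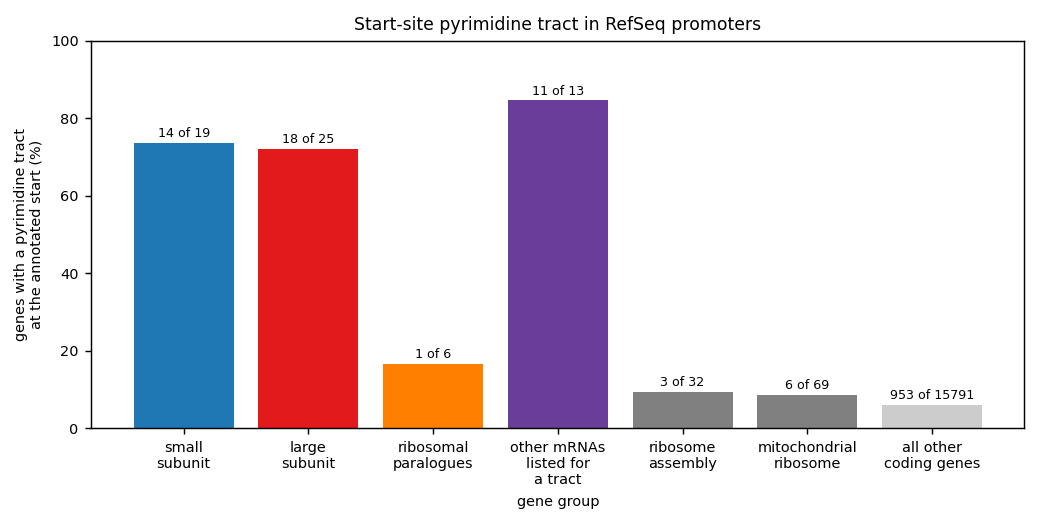
Percent of genes with a pyrimidine tract at an annotated RefSeq start, by gene group, a gene with several starts counting if any of them had a tract. The count over each bar gives the genes with a tract of those with an entry. Small and large subunit genes reach 73.7% and 72.0%, and ribosomal paralogues 16.7%, against 6.04% of all other coding genes; the other listed mRNAs, at 84.6%, were chosen as tract mRNAs, so their share follows from the choice.

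The deposited signals had a mean of 500 on every array once 2% of probe sets at each end were set aside, but the highest signal was 39961 on the lipoxin B4 array against 49067 to 56220 on the others. A probe set for the spike-in control cre read 43823 on the unstimulated and 33660 on the lipoxin B4 array. Of the 6 probe sets for 18S and 28S ribosomal RNA, 5 were higher on all 4 stimulated arrays and highest with leukotriene C4. The exception was the dim 3′ set for 28S, at 64.2 unstimulated, highest with lipoxin A4 (89.6) and lowest with lipoxin B4 (47.7). The 3′ to 5′ ratio of actin lay between 1.10 and 1.13 on the 5 arrays. Of the 10 monocytic markers on the array 9 passed the threshold, but only 4 exceeded 500 on every array, and FCGR1A never passed the threshold. Passing it does not separate cell types, since 6 of 6 B cell markers did so too. The brightest monocytic marker was LYZ, the lysozyme gene, at 49119. The summed signal of the monocytic markers ran from 46803 with lipoxin B4 to 61828 unstimulated, and its part in the members' values was not tested. In contrast CD8A, CD79A, HBB and COL1A1, the highest markers of T cells, B cells, red cells and fibroblasts, stayed between 142 and 299, and KRT18 of epithelium reached 844.

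Most ribosomal protein genes lay at the top of the signal scale. Of the 59 measured genes, 49 had a mean signal over 20000, a range that holds 126 other genes. Scanner signals of different probe sets do not rank transcript amounts, so only differences of a probe set between arrays are compared from here on. RPS23, a protein of the decoding centre, gave signals of 49132 unstimulated, 49997 and 57727 with leukotrienes B4 and C4, and 46318 and 36654 with lipoxins A4 and B4. RPS16 gave 49350, 48513, 54653, 45458 and 36156 in the same order, and RPL39, which lines the exit tunnel, 47733, 47989, 54018, 46715 and 36098. All 3 were highest with leukotriene C4 and lowest with lipoxin B4. The same held widely: 46 of the 49 bright genes were highest on the leukotriene C4 array, the other 3 (RPL35A, RPL6 and RPS25) on the unstimulated array, and 49 of 49 were lowest on the lipoxin B4 array. Both counts depend on the scaling, for after quantile normalization 17 were highest with leukotriene C4 and 19 lowest with lipoxin B4. That scaling gives every array the same distribution of signals. A shift of the brightest genes as a whole is thus removed by it whatever its source, and it cannot tell if such a shift was real. The median signal of the bright genes was 37232 unstimulated, 36847 and 41444 with leukotrienes B4 and C4, and 35330 and 28085 with lipoxins A4 and B4. In bulk RNA fewer cells of a kind and less RNA per cell cannot be told apart.

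**Figure D2:**
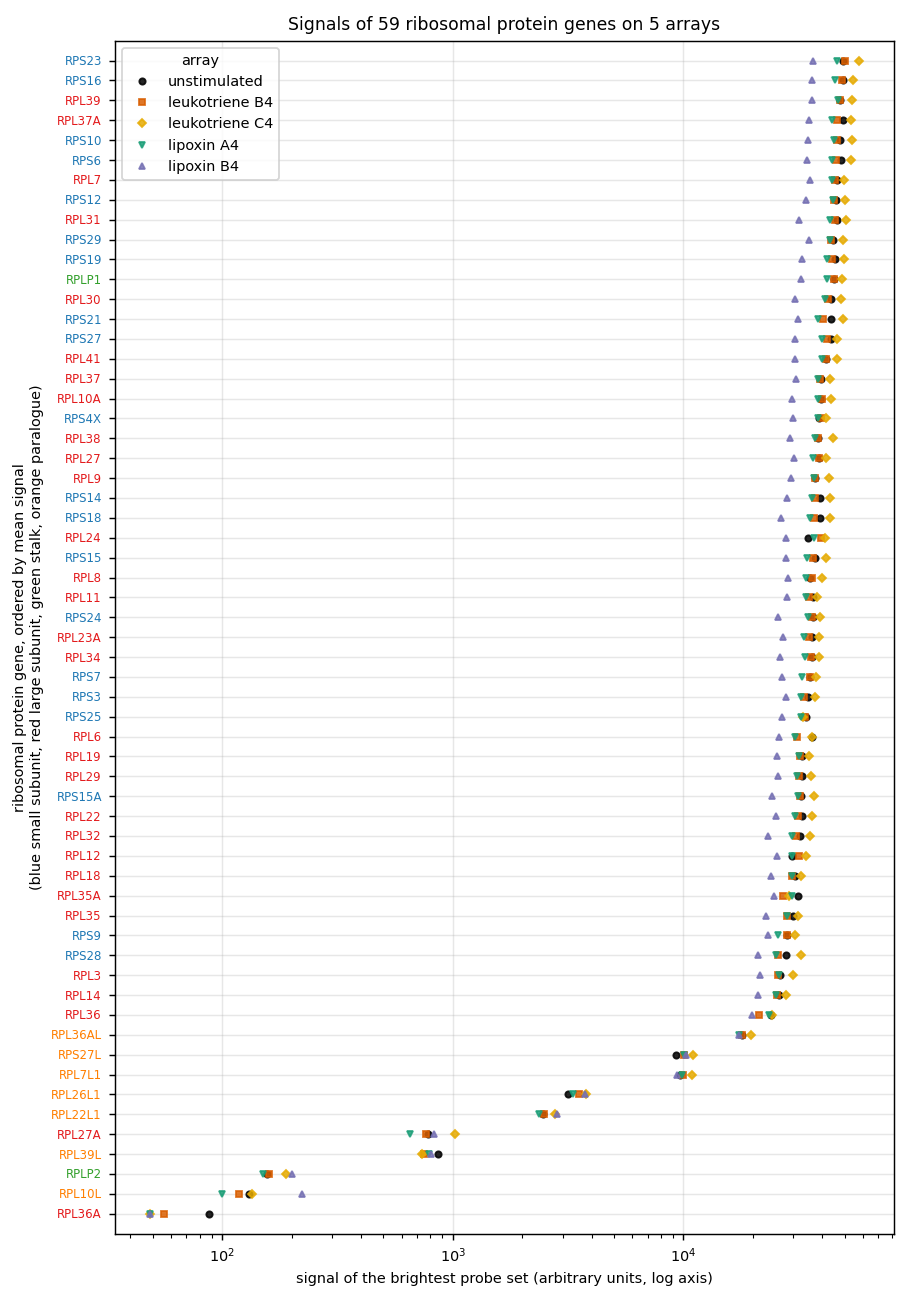
Signal of each of the 59 measured ribosomal protein genes (ordered on the vertical axis by mean signal) on the 5 arrays, on a log axis in arbitrary units. The lipoxin B4 points lie apart on the left for all 49 genes over 20000, an order that after quantile normalization held for 19 of them, while the 10 dimmer genes scatter in either direction.

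With lipoxin B4 the ribosomal protein genes had lower signals than without stimulus. The median log2 difference over the 59 genes was -0.39, with 53 below 0 and 6 above, against a median of 0 and 45.7% below 0 over the 15374 measured genes. A log2 difference of 0.32 or more in size was used to count genes past a small, fixed distance. By it 42 members were lower (17.9% of all measured genes were), and 2 were higher (12.1%), RPLP2 and RPL10L. Both of these were read from dim sets, and a bright set that lists RPLP2 with another symbol was at -0.35. No member was 2-fold lower (2%) or 2-fold higher (0.52%). The 20 small subunit genes had a median of -0.43 and the 30 large subunit genes one of -0.38. RPS18, a protein of the head of the small subunit, lay lowest among bright members, with a log2 difference of -0.57 for lipoxin B4. It gave 39178 unstimulated, 36847 and 43121 with leukotrienes B4 and C4, and 35330 and 26428 with lipoxins A4 and B4. RPL31 followed at -0.55 (46421 unstimulated and 31655 with lipoxin B4), then RPL30 at -0.52 and RPS27 at -0.52 (43623 and 30461). RPL12, which sits at the base of the stalk, was nearest to the unstimulated level among bright members, at -0.22 (29716 and 25478). Its other bright probe set was at -0.30.

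The size of this difference went with the signal, in members and in other genes alike. Among genes with mean signals of 20000 to 30000 the median difference with lipoxin B4 was -0.32 for 10 members and -0.25 for 85 other genes. From 30000 to 40000 it was -0.39 for 24 members and -0.41 for 30 others, and over 40000 it was -0.47 for 15 members and -0.48 for 11 others. At signals of 10000 to 20000, where 356 other genes lie, their median was -0.06, and at 500 to 2000 it was 0.06. Of the 126 other bright genes 121 were below 0 (96%), and 51 were lower by at least 0.32 (40.5%), beside 41 of the 49 bright members. Above 30000 the medians of members and other genes thus lay near each other, and from 20000 to 30000 that of the members was the lower.

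**Figure D3:**
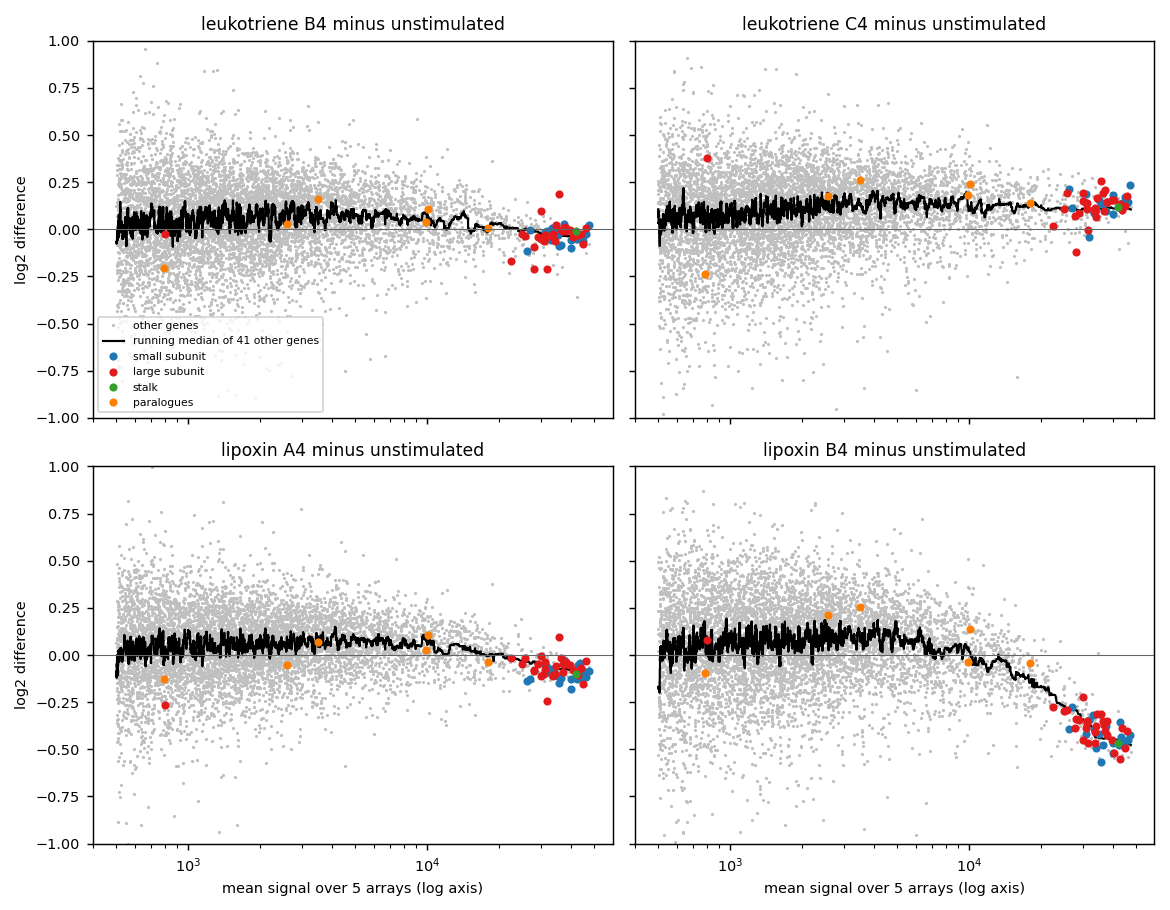
Log2 difference from the unstimulated array against mean signal (log axis) for each compound: grey points are other genes with a mean signal over 500, the black line their running median over 41 genes, and coloured points the ribosomal protein genes over 500; genes more than 1 apart are outside the axis. On the lipoxin B4 array the black line bends down above 10000 and the members lie along it. Quantile normalization gives every array the same distribution, so it would take out such a bend whatever its source.

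Each member's difference was also set against genes of like signal, by subtracting the median difference of the 200 non-member genes of nearest mean signal. With lipoxin B4 the median over the 59 members was then -0.15. These 200 genes reach down to lower signals: for the bright members their median signal was 21724, against 35695 for the members themselves. With the 500 nearest genes (median signal 14524) the median was -0.29, and with the 50 nearest (32605) it was -0.03. With only the 20 nearest genes, whose median signal was 34856, a reference added after the values were seen, the median was 0.00, with 31 members above 0 and 28 below, and after quantile normalization it was -0.00. The direction of the ribosomal protein group on the lipoxin B4 array therefore rests on the reference chosen. Against the 20 nearest genes RPS18 remained at -0.14 and RPL32 at -0.13, RPL31 at -0.08 and RPS27 at -0.05, while RPS29 stood at 0.12, RPL24 at 0.11 and RPL8 at 0.10.

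**Figure D4:**
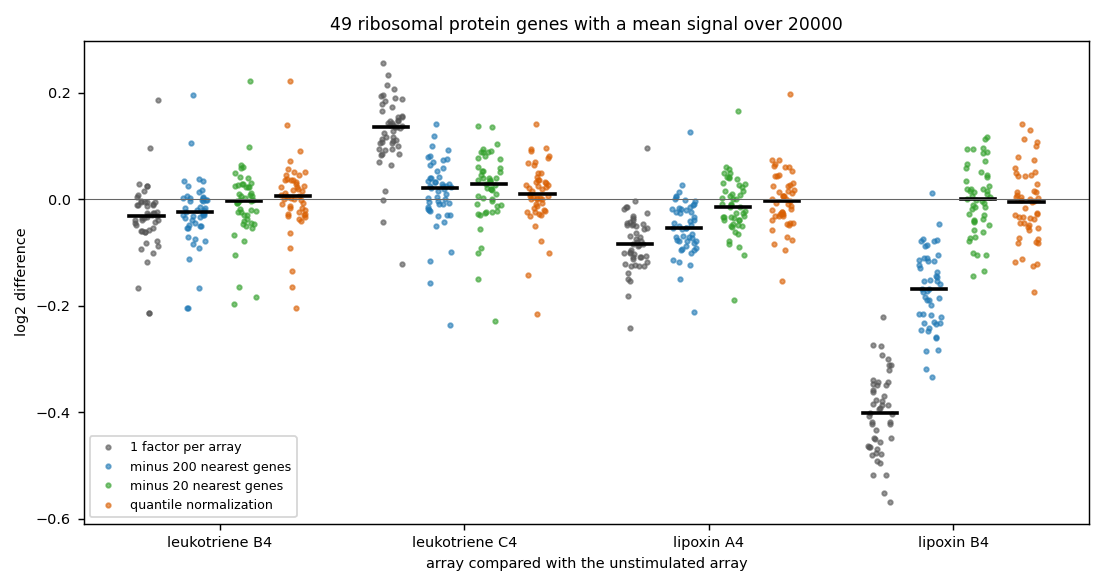
Log2 differences of the 49 ribosomal protein genes over 20000 from the unstimulated array, per compound, under 1 scaling factor per array, after subtracting the 200 or the 20 nearest other genes, and after quantile normalization; bars are medians. The lipoxin B4 median moves from -0.40 with 1 factor to -0.17, 0.00 and -0.01, and the leukotriene C4 median from 0.14 to 0.02, 0.03 and 0.01.

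Dimmer probe sets of the same genes read differently on the lipoxin B4 array. There were 7 bright genes with a further probe set of mean signal between 500 and 20000, 10 such sets in all, a comparison chosen after the values were seen. The brightest sets of these genes had a median difference of -0.40 with lipoxin B4, and the dimmer ones a median of 0.17. All 10 dimmer sets lay above their gene's brightest set and 8 of 10 were above 0. For RPS9, a small subunit protein, the dimmer set gave 14039 unstimulated, 16528 and 18672 with leukotrienes B4 and C4, and 15333 and 19202 with lipoxins A4 and B4. It was thus highest with lipoxin B4, a log2 difference of 0.45, where the brightest RPS9 set was at -0.28. RPL38 had dimmer sets at 0.19 and 0.53 beside -0.40, and RPL37A one at 0.36 beside -0.49. The 2 dimmer sets below 0 were that of RPL18, with both its sets at -0.34, and 1 set of RPL31, at -0.11 beside -0.55. For the other compounds the medians of brightest and dimmer sets lay closer. They were -0.04 and -0.01 for leukotriene B4, then 0.13 and 0.14 for leukotriene C4, while lipoxin A4 gave -0.11 and -0.06. The dimmer sets may carry probes for other transcript forms, which was not tested.

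**Figure D5:**
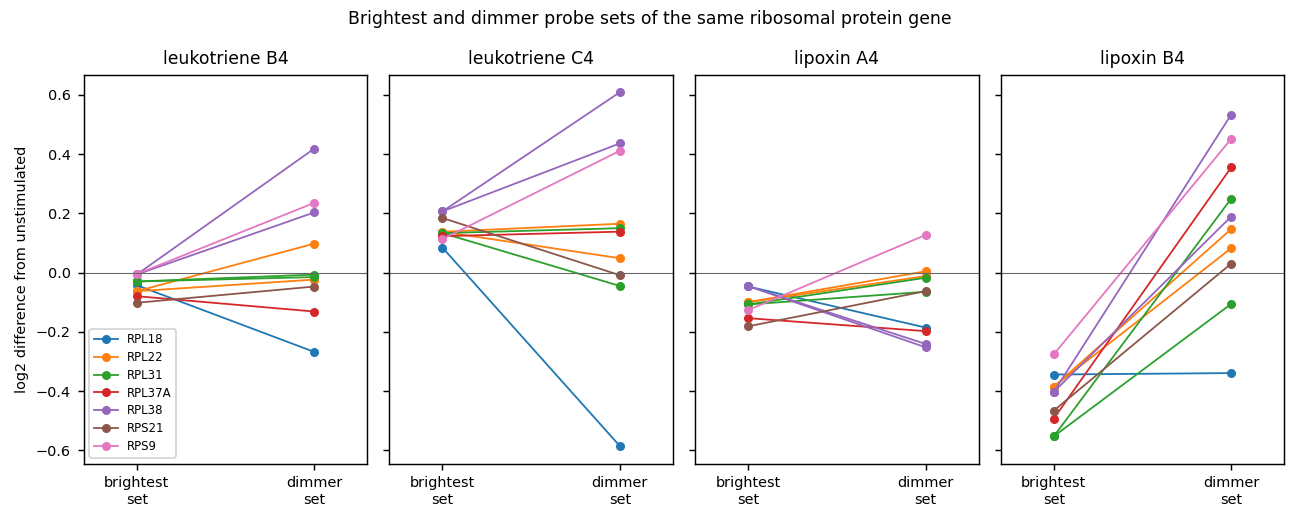
Log2 difference from the unstimulated array for the brightest probe set and each dimmer probe set (mean signal 500 to 20000) of 7 ribosomal protein genes, 1 panel per compound, lines joining sets of a gene. Under 1 scaling factor per array, all 10 lines end higher at the dimmer set on the lipoxin B4 array, while the lines of the other compounds run both ways.

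With leukotriene C4 the group lay above the unstimulated array. The median log2 difference was 0.14, with 54 of 59 members above 0, but the median over all measured genes was also above 0, at 0.06, with 57.1% above 0; below 0 were 5 members and 36.9% of all genes. Higher by at least 0.32 was 1 member (16.4% of all genes), RPL27A, and lower was 1 (14.5%), RPL36A. Both were read from dim sets, and bright sets that list RPL27A and RPL36A with other symbols were at 0.03 and 0.14. None was 2-fold higher (1.2%) or lower (1.7%). Of the 126 other bright genes 112 were above 0 (88.9%), beside 46 of the 49 bright members. Subtracting the 200 nearest genes left a median of 0.02, the 20 nearest 0.03, and quantile normalization 0.02. Small and large subunit genes were alike in this, at 0.03 and 0.03 against the 20 nearest genes. The 5 members below 0 were RPL36A at -0.85 or lower, RPL39L at -0.24, RPL35A at -0.12, RPS25 at -0.04 and RPL6 at -0.00. RPS25, which is needed for initiation on several viral RNAs, gave 33962 unstimulated, 33712 and 32981 with leukotrienes B4 and C4, and 32477 and 26772 with lipoxins A4 and B4, so it was not higher on the array where nearly all its partners were. The middle probe sets for 18S and 28S ribosomal RNA were highest on this same array, that for 18S at 186 unstimulated and 3069 with leukotriene C4, and their part in the members' values was not tested.

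With leukotriene B4 the group was nearest to the unstimulated array. The median difference was -0.03, 45 members were below 0 (44.7% of all genes) and 14 above (47.3%). No member was higher by at least 0.32 (11.1%) and 1 was lower (16%), RPL36A. It was read from a dim set, and a bright set that lists RPL36A with another symbol was at -0.06. None was 2-fold higher (0.715%) or lower (1.76%). Among bright members 41 of 49 were below 0, beside 61.1% of other bright genes, and against the 20 nearest genes the median was -0.00. After quantile normalization it was 0.00 over the 59 members, with 31 of them above 0 and 26 below. RPL24, a protein that joins the large subunit late, in the cytoplasm, had the highest value among bright members: 34583 unstimulated, 39364 and 41305 with leukotrienes B4 and C4, and 36968 and 27879 with lipoxins A4 and B4, a difference of 0.19 for leukotriene B4. RPL6 was lowest with RPL35A, at -0.21 each. RPL6 gave 35991 unstimulated, 31050 and 35951 with leukotrienes B4 and C4, and 30419 and 26084 with lipoxins A4 and B4, which placed it below its neighbours on every stimulated array, at -0.18, -0.10, -0.19 and -0.11 in that order against the 20 nearest genes.

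With lipoxin A4 the differences were small and mostly negative. The median was -0.08, with 55 of 59 members below 0 (43.5% of all genes) and 4 above (48.2%), and 96 of the 126 other bright genes were below 0 as well (76.2%). No member was higher by at least 0.32 (10.4%) and 2 were lower (14.6%), RPL36A and RPL10L. Both were read from dim sets, and a bright set that lists RPL36A with another symbol was at -0.05. None was 2-fold higher (0.722%) or lower (1.72%). All 20 small subunit genes lay below 0, with a median of -0.11, and the large subunit median was -0.07. Against the 20 nearest genes the medians were -0.03 for the small and -0.01 for the large subunit, and after quantile normalization the group's median was -0.01. RPL24 was again highest among bright members, at 0.10, and RPL6 lowest, at -0.24.

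Second bright probe sets of the same gene gave a further reading of its log2 difference from the unstimulated array. Whether the sets of a gene read the same transcripts was not tested. For 14 genes with more than 1 probe set over 20000, 18 pairs in all, the absolute gap between the brightest set and another had medians on the log2 scale of 0.04, 0.05, 0.04 and 0.06 in the order of the compounds, that is leukotrienes B4 and C4 and then lipoxins A4 and B4. The widest gap, 0.31, was that of RPL10A with lipoxin B4, whose sets were at -0.42 and -0.11. With leukotrienes B4 and C4 the widest gaps were those of RPL24 and RPL35A, 0.25 each. The second RPL24 set gave 33914 unstimulated, 32386 and 34560 with leukotrienes B4 and C4, and 32699 and 28687 with lipoxins A4 and B4, a difference of -0.07 with leukotriene B4 where the first gave 0.19. The second RPL35A set gave 28046, 28163, 30632, 27852 and 23011 in the same order, a difference of 0.01 with leukotriene B4 where the first gave -0.21. RPL12 likewise had 0.10 on the first and -0.03 on the second set. The high value of RPL24 and the low value of RPL35A were thus not shared by their other bright probe sets, and RPL6 has no second set. The other bright sets were below 0 in 15 of 18 pairs with leukotriene B4 and in 18 of 18 with each lipoxin, and above 0 in 16 of 18 with leukotriene C4. Bright genes outside the family mostly had the same signs, with 61.1% below 0 for leukotriene B4, 76.2% and 96% for lipoxins A4 and B4, and 88.9% above 0 for leukotriene C4.

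All 7 measured paralogues had mean signals under 20000, and on the lipoxin B4 array their median was 0.14. Of the 7, 4 were above 0, beside 44.5% of all measured genes. RPS27L, a p53-inducible copy of RPS27, gave 9331 unstimulated, 10044 and 11007 with leukotrienes B4 and C4, and 10041 and 10280 with lipoxins A4 and B4, so every stimulated array was higher, by 0.11, 0.24, 0.11 and 0.14. Its next probe set, with a mean signal of 609, gave 0.13, 0.15, -0.41 and 0.33, so the lipoxin A4 value is not shared. RPS27 itself was at -0.06, 0.08, -0.13 and -0.52. RPL22L1, the paralogue of RPL22, gave 2450, 2499, 2771, 2365 and 2842 in the order of the arrays, or 0.21 with lipoxin B4 where the brightest RPL22 set was at -0.38. RPL22 sets with mean signals under 20000 gave 0.15 and 0.08 with lipoxin B4, and against the 20 nearest genes the brightest was at -0.04. RPL26L1, a near copy of RPL26, gave 3153, 3528, 3783, 3310 and 3755 and was higher on all 4 stimulated arrays, at 0.16, 0.26, 0.07 and 0.25. These values of RPL26L1 and RPS27L exceeded those of the 20 nearest genes: RPL26L1 by 0.14, 0.12, 0.03 and 0.17, and RPS27L by 0.09, 0.18, 0.06 and 0.17, in the order of the compounds.

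RPL36AL, a near-identical copy of RPL36A, gave 17917, 17987, 19735, 17451 and 17383, the narrowest range over 5 arrays of all members at 0.18. RPL7L1, a nucleolar relative of RPL7, gave 9653, 9927, 10941, 9827 and 9401, with RPL7 at -0.39 and RPL7L1 at -0.04 on the lipoxin B4 array. Against the 20 nearest genes this order turned, with RPL7 at 0.09 and RPL7L1 at -0.13. A probe set that lists RPL7L1 beside another gene, WAC-AS1, was at 0.31 with lipoxin B4, so the readings of RPL7L1 differ in sign. RPL39L, a copy of RPL39 enriched in testis, gave 864, 751, 734, 790 and 808, lower on every stimulated array, at -0.20, -0.24, -0.13 and -0.10. RPL10L, the testis copy of RPL10, had the widest range of all members, 1.15, and was the only member 2-fold apart in any comparison. It gave 131 unstimulated, 119 and 135 with leukotrienes B4 and C4, and 99.6 and 221 with lipoxins A4 and B4, so it was high on the lipoxin B4 array alone and 2-fold lower with lipoxin A4 than with lipoxin B4 (0.507% of all genes were), at -1.15. At this signal a single array gives little precision. RPL3L, the muscle copy of RPL3, stayed under the threshold on all arrays, and RPL3 was at -0.03, 0.19, -0.01 and -0.29.

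The stalk proteins recruit elongation factors to the ribosome. RPLP1 gave 44992, 44796, 48777, 41932 and 32517, close to the bright genes around it, at -0.01, 0.12, -0.10 and -0.47. The single-symbol probe set of RPLP2 was dim, with 157, 159, 190, 150 and 201, and a probe set that lists RPLP2 beside a small nucleolar RNA read 48355, 46417, 50244, 45553 and 38054. RPL27A and RPL36A were alike in this. RPL36A by its own symbol read 87.5 unstimulated and 56.1 with leukotriene B4 and was under 48.7 on the other 3 arrays, at least 1.80-fold lower there, while the set that lists it with a read-through transcript read 42443, 40625, 46631, 40859 and 32565. RPL27A by its own symbol read 782, 768, 1018, 651 and 827, and the set it shares with a small nucleolar RNA 46252, 46255, 47324, 43606 and 33896. For these 3 genes the dim single-symbol sets and the bright shared sets differed in pattern, and the dim ones are not taken as the level of the gene. Of the 55 measured probe sets of members other than the brightest, 7 were at least 2-fold apart in at least 1 of the 6 comparisons, as were 8.91% of all measured single-symbol probe sets, and the 7 had mean signals of 57.2 to 165.

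A further 15 ribosomal protein genes were listed only on probe sets with several symbols, often beside a small nucleolar RNA, and are not members by the rule: RPL4, RPL5, RPL7A, RPL10, RPL13, RPL13A, RPL17, RPL21, RPL23, RPL28, RPS2, RPS3A, RPS13, RPS20 and RPS26. Of the 65 probe sets of several symbols that name a ribosomal protein gene, 43 had mean signals over 20000. These 43 had medians of -0.02, 0.16, -0.08 and -0.36 in the order of the compounds. The bright members had -0.03, 0.14, -0.09 and -0.40, and the dimmer sets of several symbols are not in these medians. RPSA, RPLP0 and 8 more genes were not read by the annotation used here.

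RPL11, which with RPL5 and the 5S RNA binds MDM2 when ribosome assembly fails, gave 36522, 35033, 38161, 34051 and 28085 in the order of the arrays, or -0.06, 0.06, -0.10 and -0.38. RPS6, the substrate of the S6 kinases, gave 48151, 46109, 53151, 44198 and 34491, or -0.06, 0.14, -0.12 and -0.48. Neither stood apart from the bright genes around it: against the 20 nearest genes RPL11 ranged from -0.06 to 0.01 and RPS6 from -0.03 to 0.05. Of 17 genes mutated in Diamond-Blackfan anaemia, a failure of red cell production, 12 were measured. All 12 have mean signals over 20000 and were lower by at least 0.32 with lipoxin B4 under 1 scaling factor per array, beside 41 of the 49 bright members and 17.9% of all measured genes. Against the 20 nearest genes 7 of the 12 were below 0, with a median of -0.01.

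Compounds of a class were compared at the same dose and time, in 2 pairs, with 1 array each and no test. Leukotriene B4 and leukotriene C4, which differ in the glutathione group of the latter, had a median member difference of -0.16, leukotriene B4 being lower, and -0.02 against the 20 nearest genes. None was higher with leukotriene B4 by at least 0.32 (9.72% of all genes) and 2 were lower (15.7%), RPL27A and RPS28. The RPL27A value is that of a dim set, and the bright set it shares was at -0.03. None was 2-fold higher (0.885%) or lower (1.57%). RPS28, which lies at the mRNA exit, gave 27785 unstimulated, 25611 and 32236 with leukotrienes B4 and C4, and 25250 and 21150 with lipoxins A4 and B4. Lipoxin A4 and lipoxin B4, trihydroxy acids that differ in the position of a hydroxyl group, had a median difference of 0.30, lipoxin A4 being higher, and -0.02 against the 20 nearest genes. There 25 members were higher with lipoxin A4 by at least 0.32 (11.3%) and 3 lower (8.68%), namely RPL27A, RPLP2 and RPL10L, and none was 2-fold higher (0.839%). These 3 were read from dim sets, and the bright shared sets of RPL27A and RPLP2 were at 0.36 and 0.26. After quantile normalization the medians of both pairs were -0.01 and 0.00, so neither pair can be called different or alike from these arrays.

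Other genes of the translation machinery were read for comparison, beside medians over all measured genes of 0 with leukotriene B4, 0.06 with leukotriene C4, and 0 with each lipoxin. A list of 20 other mRNAs was assembled as known pyrimidine-tract mRNAs, most of them of the translation machinery, so that its share with a tract follows from the choice. Of these 16 were measured, with medians of -0.01, 0.16, -0.03 and -0.23 in the order of the compounds. None was past 0.32 with leukotriene B4 (11.1% of all measured genes were higher and 16% lower) or lipoxin A4 (10.4% and 14.6%). By the same distance 1 was higher with leukotriene C4 (16.4% of all genes) and 6 were lower with lipoxin B4 (17.9%). The 6 were bright: EEF1A1, the elongation factor that delivers tRNA, read 47471 unstimulated and was at -0.46 with lipoxin B4, TPT1 at -0.48, PABPC1 at -0.49, NPM1 at -0.43, EEF2 at -0.35 and VIM, which encodes an intermediate filament protein and no translation factor, at -0.45. The dimmer ones differed less, with EIF3L at -0.03 and EIF4B at -0.01. Of 36 genes of ribosome assembly and RNA polymerase I, 30 were measured, with medians of 0.03, 0.12, -0.01 and 0.00. With lipoxin B4, 2 of them were higher by at least 0.32 (12.1% of all genes) and 5 lower (17.9%). RRP12, a factor of subunit export, was highest in this list with leukotriene C4, at 0.78. The 13 regulators of pyrimidine-tract mRNAs and of ribosomal protein gene transcription had medians of 0.08, 0.15, 0.08 and 0.04, among them LARP1 at 0.22, 0.17, 0.08 and 0.03 and MYC at 0.21, 0.29, 0.17 and 0.05. The 75 measured mitochondrial ribosomal protein genes had medians of -0.01, 0.16, 0.03 and 0.02. The median of each list of moderate signal thus lay near 0 with lipoxin B4, and that of the brighter list did not.

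Bright members with a tract were much like those without. With lipoxin B4 the median was -0.42 for 31 genes with a tract and -0.38 for 12 without. With leukotriene C4 it was 0.13 and 0.14, with lipoxin A4 -0.09 and -0.07, and with leukotriene B4 -0.03 and -0.03.

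Over the 5 arrays a bright member ranged by a median of 0.56 on the log2 scale, from 0.29 to 0.71, and the 126 other bright genes by 0.41. These are not matched in signal, for the others had an unstimulated median of 27786 and the bright members one of 37232. After quantile normalization the median range of all 59 members was 0.0956. The genes outside the family whose course over the 5 arrays lay nearest to the members' median course were HMGB1, EEF2, LDHB, ELANE and HMGN2, with mean absolute distances of 0.0124 to 0.0172 on the log2 scale. HMGB1, a chromatin protein, gave 35147, 33652, 37665, 33082 and 26944. All 5 are themselves bright, with unstimulated signals of 29442 to 45206.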

How the data were processed

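Total RNA of 5 MonoMac6 cultures was hybridised to GeneChip arrays, 1 per condition. The deposited values are linear intensity signals, made by the authors with GCOS 1.4, per the submitters' processing notes. Its signal setting is not stated in what was used here. Each array was multiplied by 1 factor that equalised the median of the brighter 50% of probe sets, signals under 48.7 (the 50th percentile of mean log2 signal) were set to that value, and log2 differences were taken. GeneChip platform annotation, updated through RefSeq, named 41091 probe sets by 1 symbol, 1801 by several and left 11777 unlisted here, and none was named from several symbols. With no replicates there is no test, and the number of arrays limits the precision; thresholds of 2-fold and of 0.32 on the log2 scale only describe. Members and lists were chosen with earlier results of these data known. Named were stalk proteins, paralogues and their partners, RPL11, RPS6, members 2-fold apart, and members of extreme value, signal or range; RPL10A, RPL32, RPS29, RPL8, RPS28, RPS9, RPL38, RPL18 and single list genes were named after their values were seen. Comparisons between probe sets of a gene and the reference of 20 nearest genes were also added after seeing the data. Alternatives were other scalings, floors, probe set rules and like-signal references. Python 3.11.15, numpy 2.4.6 and pandas 2.3.3 were used, and the calculation was tested on simulated data.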

Additional observations from a re-analysis of the deposited data

Results flagged for a closer look

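The middle probe sets for ribosomal RNA, which the comparisons of protein genes do not use, gave more signal on the stimulated arrays than on the unstimulated one. The middle 18S probe set was 4.90-fold higher with leukotriene B4, 16.5-fold with leukotriene C4, 1.96-fold with lipoxin A4 and 5.66-fold with lipoxin B4. The middle 28S probe set was 2.17-fold, 2.87-fold, 1.36-fold and 1.59-fold higher in the same order. The dim 3′ set for 28S was the exception, at 64.2 unstimulated and 47.7 with lipoxin B4, a ratio of 0.743. Their part in the members' values was not tested.

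The members' median difference against the 200 nearest genes had opposite signs on 2 arrays, 0.024 with leukotriene C4 and -0.15 with lipoxin B4. With 1 array each the difference between them was not tested, and with the 20 nearest genes the lipoxin B4 value was 0.00.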

How the results depend on the processing

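Over 11 alternative settings, 155 of 183 recomputed values stayed within the spread between the stimulated arrays, or for counts within 1.5 times, and 28 moved. That spread, 0.15 on the log2 scale, is a standard deviation of genes of like signal over the stimulated arrays. It exceeds most of the medians set against it. A median could thus fall to near 0 or change sign and still count as unmoved, so the count of unmoved values does not measure stability. Signs turned for 3 medians: leukotriene B4 went from -0.030 to 0.0026 after quantile normalization, and with the 20 nearest genes the medians against like-signal genes went from -0.15 to 0.0036 for lipoxin B4 and from 0.092 to -0.017 for the lipoxin pair. Quantile normalization moved most: with lipoxin B4 the median became -0.0012, the median against like-signal genes -0.0029 and the count at least 0.32 apart 3 (44 in the report); for the leukotriene pair the median became -0.013 and the count 1, for the lipoxin pair 0 and 3, for lipoxin A4 the count 1; the median range became 0.0956, and 19 bright members were lowest with lipoxin B4 and 17 highest with leukotriene C4. Averaging all probe sets of a gene left 27 bright members, 26 lowest with lipoxin B4 and 25 highest with leukotriene C4, and counts at least 0.32 apart of 4 (leukotriene B4), 7 (leukotriene C4), 25 (lipoxin B4), 4 (leukotriene pair) and 18 (lipoxin pair). Values as deposited gave counts of 1 for leukotriene C4 and 1 for the leukotriene pair. A floor at the 30th percentile gave 2 for leukotriene B4 and 4 for the leukotriene pair; one at the 70th gave 0, 1 and 0 for leukotriene B4, leukotriene C4 and lipoxin A4. Without the paralogues lipoxin A4 had 1. For the counts the cause was not tested. No paired analysis was possible because each condition has 1 array. Dim members rest on signals near the threshold.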
